A study of Mus musculus with 9 samples.

Results

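The genes described here are the cyclins, the cyclin-dependent kinases (CDKs), their inhibitors and the E2F transcription factors. They were chosen by name from the deposited gene table: symbols of a cyclin with a letter and a number (such as Ccnd1), a numbered CDK, an inhibitor of the Cdkn1 or Cdkn2 series, or a numbered E2F. The rule took 50 of 28998 genes. Of these, 47 had a mean of at least 1 FPKM over the libraries (the deposited level, scaled to transcript length and library depth) and were tested. The other 3, Ccna1, Cdk3 and Cdk15, had means of 0.0044, 0.087 and 0.23 FPKM and are not described further.

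The cells were bone marrow-derived macrophages of wild-type C57 mice, grown from marrow monocytes with GM-CSF, a growth factor of the myeloid lineage, for 7 days. There were 3 groups of 3 libraries: Control, JHU083 and WGFT17, the drug groups treated for 36 h. JHU083 is known as a prodrug of the glutamine antagonist DON, whereas WGFT17 is known here by its code name alone. Doses are missing from the labels, as are any vehicle or duration for Control and whether replicates were separate cultures or animals, so p-values measure the spread between these libraries only.

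Cells divide in a fixed order of phases that cyclins and CDKs drive. Mitogens raise D-type cyclins, which with CDK4 and CDK6 phosphorylate the retinoblastoma protein RB in G1, the gap before DNA synthesis, and so release E2F factors. E2F then turns on cyclin E, cyclin A and the DNA synthesis genes, and cyclin B with CDK1 carries the cell through mitosis. INK4 proteins inhibit CDK4 and CDK6, and CIP/KIP proteins inhibit CDK2 complexes. A further set of cyclins and CDKs does not drive the cycle but regulates RNA polymerase II and splicing. Macrophages grown in culture can still divide, and most differentiated ones rest outside the cycle.

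Library totals ran from 56624220 to 69112134 deposited counts, at about 4 counts to a read pair. The 9 macrophage markers were present in all libraries and summed to 17497 to 18851 CPM (counts scaled to the library total) in Control, 18434 to 19699 in JHU083 and 17451 to 19429 in WGFT17. Single markers moved within these sums. Against Control, 2 were called higher and 3 lower in WGFT17 (55.6%, beside 58.0% of all tested genes), 1 of them at least 2-fold lower. In JHU083, 1 was called higher and 2 lower (33.3%, beside 24.0%). Markers of other cells were present too, and most of these lists moved with the groups. The 9 stromal markers summed to 12669 to 13533 CPM in Control, 8312 to 9500.3 in JHU083 and 2277 to 2397 in WGFT17, and all 7 that were tested were lower in WGFT17 than in Control. The 7 dendritic cell markers summed to 407 to 584, 395 to 446 and 131 to 155 CPM, with Flt3 at or below 0.040 FPKM throughout. The 4 that were tested, Itgax, H2-Aa, H2-Ab1 and Cd74, were all lower in WGFT17 than in Control. Among the others, Ccr7 went the other way, from 0.06 to 0.08 FPKM in Control to 0.43 to 0.96 in WGFT17. Zbtb46 stayed at 0.13 to 0.29 FPKM over all libraries. The 9 neutrophil markers summed to 29.0 to 35.3, 7.42 to 8.99 and 0.918 to 1.97 CPM, with Ly6g listed at 0 in 8 libraries. Heart markers summed to 247 to 289 CPM in Control, to 186, 0.324 and 299 in JHU083 replicates 1 to 3 and to 0.289 to 0.346 in WGFT17, and photoreceptor markers to 36.6 to 44.8, then 5.74, 5.5 and 40.9, then 3.73 to 4.44. Liver markers summed to 1026 to 1147 CPM in Control, 151 to 575 in JHU083 and 207 to 483 in WGFT17, with 7 of 8 lower than Control in JHU083 and 6 of 8 in WGFT17. None of 4 tested erythroid markers was called in any comparison, with sums of 6.85 to 8.36, 6.82 to 13.6 and 3.99 to 12.9 CPM, and B and T cell markers summed to at most 9.71 CPM in any library. JHU083 replicate 3 was close to Control in both heart and photoreceptor markers, so the members whose calls change when it is left out are named below. JHU083 replicate 1 also held heart markers, at 186 CPM. Leaving out replicate 3 thus does not leave a JHU083 group without them. The part of these other cells in the results below was not tested. In bulk RNA, fewer dividing cells and less of a transcript per cell cannot be told apart.

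The comparison of WGFT17 with Control asks how the transcripts of these genes differed in the libraries treated with this compound. Of the 47 tested members, 15 were higher and 20 lower in WGFT17 (edgeR's quasi-likelihood test, Benjamini-Hochberg adjusted p under 0.05), a share of 74.5% beside 58.0% of all 11798 tested genes. Of all genes, 28.0% were called higher and 30.0% lower. Of the 20 lower members, 13 were at least 2-fold lower, as were 10.8% of all tested genes, and none of the 15 higher members reached 2-fold, as 2.14% of all genes did. The median log2 change was -0.08 over the members and 0.0044 over all genes. The 27 tested members with a role in the cycle itself had a median of -0.83, with 3 higher and 18 lower. The 12 transcription and splicing members had a median of 0.34, with 11 higher and 0 lower.

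The comparison of JHU083 with Control asks how the same genes differed in the libraries treated with JHU083. Here 8 members were higher and 3 lower, a share of 23.4% beside 24.0% of all genes, so the members were called about as often as any gene. By direction, 11.5% of all genes were called higher and 12.5% lower. No called member reached 2-fold, and the median log2 change was 0.06. On the FPKM scale, by limma on log2(FPKM + 1), 17 members were higher and 3 lower, where 21.5% of all genes were called higher and 8.33% lower. In WGFT17 against JHU083, set side by side at the same time of 36 h and with doses not given, 7 members were higher and 23 lower (63.8%, beside 44.7% of all genes, 20.4% higher and 24.4% lower). At least 2-fold lower were 12 members and 2-fold higher 1, beside 7.98% and 1.40% of all genes. The 3 comparisons share libraries in pairs, so their counts are not independent. The first principal component of the 47 members held 93.4% of their variance and placed WGFT17 libraries at 5.92 to 6.28 and all 6 others between -3.25 and -2.90.

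**Figure D1:**
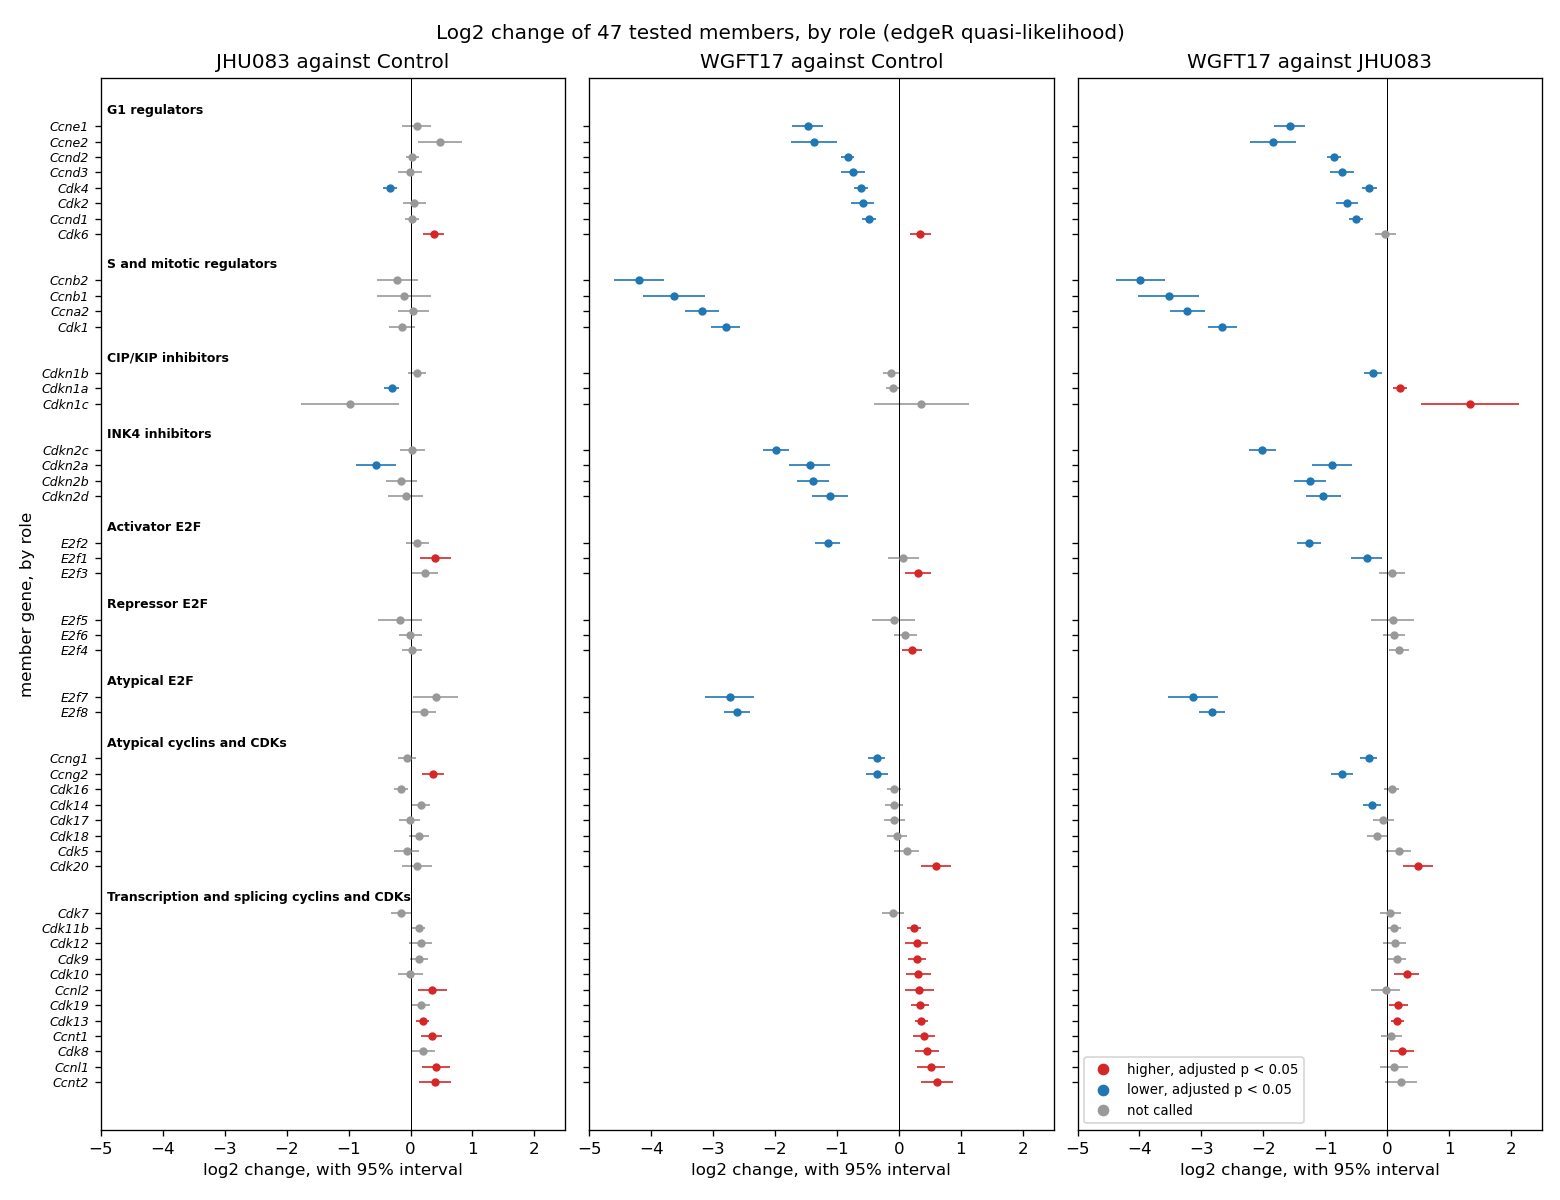
Log2 change (x axis) of each of the 47 tested members (y axis, grouped by role) in the 3 comparisons, as the estimate (point) with its 95% interval (bar), red where called higher, blue where called lower and grey where not called. In WGFT17 against Control the S and mitotic regulators lie between -4.20 and -2.80 and the transcription and splicing members, except Cdk7, lie above 0.

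FPKM and the count test are scaled differently, and the levels below are not on the scale of the test. In log2(FPKM + 1), the median gene was 0.079 higher in JHU083 than in Control and 0.095 higher in WGFT17, against 0.0037 and 0.0044 in the count test. FPKM groups that lie apart by a small step can thus have a log2 change near 0. Of all tested genes, 73.2% showed no overlap of FPKM between WGFT17 and Control, 43.7% between JHU083 and Control and 53.4% between WGFT17 and JHU083.

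The S and mitotic regulators were the members that fell most in WGFT17. Ccna2 encodes cyclin A2, the partner of CDK2 in DNA synthesis and of CDK1 in early mitosis (chromosome 3, 36564865 to 36572150). Positions are those of the deposited table, which equal GRCm38 gene coordinates for 41 of the 50 members. Ccna2 had 14.7, 14.8 and 13.98 FPKM in Control replicates 1 to 3, 15.7, 15.2 and 16.9 for JHU083, then 2.04, 1.32 and 1.8 for WGFT17. The 6 libraries of the other groups lay together, and all WGFT17 libraries lay far below them. This was a log2 change of -3.18 (SE 0.13, adjusted p = 4.05e-09), or 9.07-fold lower. Ccnb1 encodes cyclin B1, which with CDK1 triggers entry into mitosis (chromosome 13, 100778650 to 100786570). It had 9.93, 10.1 and 8.95 FPKM in Control replicates 1 to 3, 9.15, 9.5 and 10.2 for JHU083, then 1.25, 0.58 and 0.67 for WGFT17. WGFT17 replicate 1 was the highest of its group, and the groups did not overlap. The log2 change of -3.63 (SE 0.23, adjusted p = 1.38e-07) was 12.4-fold. Ccnb2 encodes the related cyclin B2 (chromosome 9, 70407692 to 70421547) and had 17.1, 20.4 and 18.6 FPKM in Control replicates 1 to 3, 16.6, 16.1 and 19.01 for JHU083, then 0.74, 1.24 and 1.31 for WGFT17. It showed the deepest fall of all members, with a log2 change of -4.20 (SE 0.18, adjusted p = 7.6e-09), 18.3-fold lower and rank 65 from the lowest of 11798 genes. Cdk1, the mitotic kinase itself (chromosome 10, 69335146 to 69352938), had 10.2, 9.94 and 9.18 FPKM in Control replicates 1 to 3, 9.3, 8.76 and 10.4 for JHU083, then 1.45, 1.73 and 1.35 for WGFT17. Its log2 change of -2.80 (SE 0.11, adjusted p = 2.66e-09) was 6.95-fold, again with no overlap.

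In JHU083 none of these 4 was called against Control. The estimates were 0.05 for Ccna2, -0.10 for Ccnb1, -0.21 for Ccnb2 and -0.13 for Cdk1, with 95% intervals of -0.20 to 0.30, -0.53 to 0.33, -0.55 to 0.12 and -0.35 to 0.08. Compared with JHU083 directly, WGFT17 was lower in all 4, by log2 -3.23 for Ccna2, -3.53 for Ccnb1, -3.99 for Ccnb2 and -2.66 for Cdk1 (adjusted p = 4.75e-09, 2.06e-07, 1.37e-08 and 4.79e-09). The summed FPKM of cyclins A2, B1 and B2 was 41.6 to 45.2 in Control, 40.8 to 46.1 in JHU083 and 3.14 to 4.03 in WGFT17. Ccnb1 and Ccnb2 have pseudogene copies in the table, with counts of 7 to 74 and 12 to 73 over the 9 libraries. These were small beside the genes' counts in Control and JHU083, at 2479 to 3126 for Ccnb1 and 1635 to 2286 for Ccnb2. In WGFT17 the genes had only 181 to 386 and 82 to 142 counts. The part of the copies in those counts was not tested. Ccna2 overlaps Exosc9 on the opposite strand by 863 bases. Exosc9 moved the other way (log2 change of 0.36, adjusted p = 0.00416), and whether the deposited counts used strand is not given in the sources used here.

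Genes of mitosis are known to be held off in resting cells by the DREAM complex, which binds the CHR element in their promoters, beside CCAAT boxes that the factor NF-Y binds, while E2F sites are typical of genes of G1 and S phase. Because these members fell together, the promoters of Ccnb1, Ccnb2 and Cdk1 are shown, with that of E2f7 as an example from the E2F genes. No promoter entry was found for Ccna2. The promoter of E2f8 is not printed and held 1 CHR match and 1 CCAAT box. The windows run from 250 bases before to 50 bases after the RefSeq start (GRCm38.p6), on the gene's strand, for Ccnb1 (chr13:100786437-100786736, minus strand), Ccnb2 (chr9:70421505-70421804, minus strand), Cdk1 (chr10:69352863-69353162, minus strand) and the atypical E2F gene E2f7 (chr10:110745189-110745488, plus strand). Capitals mark matches on either strand to the CHR element (TTTGAA or TTCGAA), the CCAAT box (CCAAT) and the E2F site (TTTGGCGC, TTTCCCGC, TTTCGCGC or TTTGCCGC).
Ccnb1: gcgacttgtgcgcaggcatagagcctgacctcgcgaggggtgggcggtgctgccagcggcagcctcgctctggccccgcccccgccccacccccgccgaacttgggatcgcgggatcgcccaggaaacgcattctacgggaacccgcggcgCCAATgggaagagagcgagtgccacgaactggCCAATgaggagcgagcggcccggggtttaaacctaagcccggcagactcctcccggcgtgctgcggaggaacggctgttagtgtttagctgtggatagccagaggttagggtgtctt
Ccnb2: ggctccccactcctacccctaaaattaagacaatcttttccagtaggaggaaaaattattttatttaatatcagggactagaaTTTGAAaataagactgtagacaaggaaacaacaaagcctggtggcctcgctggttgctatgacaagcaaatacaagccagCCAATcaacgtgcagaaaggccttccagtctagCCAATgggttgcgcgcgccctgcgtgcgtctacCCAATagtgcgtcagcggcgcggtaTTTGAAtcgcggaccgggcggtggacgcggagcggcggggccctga
Cdk1: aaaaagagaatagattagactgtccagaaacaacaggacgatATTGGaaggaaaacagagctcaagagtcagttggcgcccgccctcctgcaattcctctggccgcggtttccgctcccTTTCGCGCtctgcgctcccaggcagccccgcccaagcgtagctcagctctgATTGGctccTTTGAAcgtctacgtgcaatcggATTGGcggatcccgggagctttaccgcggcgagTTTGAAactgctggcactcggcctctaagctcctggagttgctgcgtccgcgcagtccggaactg
E2f7: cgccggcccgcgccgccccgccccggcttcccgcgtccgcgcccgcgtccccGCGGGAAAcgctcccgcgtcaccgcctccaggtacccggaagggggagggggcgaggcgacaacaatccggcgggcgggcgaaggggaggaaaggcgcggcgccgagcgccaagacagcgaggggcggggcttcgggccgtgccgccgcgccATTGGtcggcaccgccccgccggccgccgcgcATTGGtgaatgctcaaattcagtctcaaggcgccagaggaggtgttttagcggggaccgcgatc
Ccnb2 held CHR matches at -167 and at 5 bases after the start and CCAAT boxes at -87, -54 and -21. Cdk1 held CHR matches at -71 and -15, CCAAT boxes at -208, -80 and -48, and an E2F match at -131. Ccnb1 held CCAAT boxes at -99 and -67 and no match to these CHR letters. E2f7 held an E2F match at -198 and CCAAT boxes at -46 and -14. The matches did not overlap each other.

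**Figure D2:**
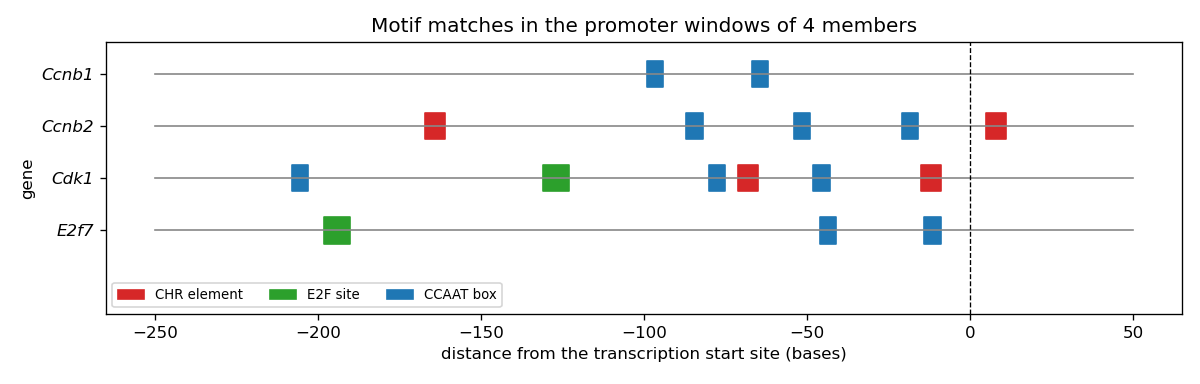
Matches to the CHR element (red), E2F site (green) and CCAAT box (blue) in the promoter windows of Ccnb1, Ccnb2, Cdk1 and E2f7, by distance in bases from the transcription start site (dashed line). CCAAT boxes appear in all 4 windows and CHR matches in those of Ccnb2 and Cdk1.

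Promoter windows were found for 39 of the 50 members. Among the 13 members at least 2-fold lower in WGFT17, 11 had a window: 5 of these genes (45.5%) held a CHR match, 9 (81.8%) a CCAAT box and 4 (36.4%) an E2F match. Among the other tested members, 26 had a window, and 2 (7.69%), 11 (42.3%) and 2 (7.69%) held them. Of the 8691 tested genes with a window, 16.3% held a CHR match, 43.1% a CCAAT box and 4.83% an E2F match, and of all 27025 genes with a window 21.7%, 41.1% and 2.60% did. None of 11 transcription and splicing members held a CHR or E2F match. These groups were formed by the change itself, so the shares are a description of letters and not of binding.

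The G1 regulators fell in WGFT17 by smaller amounts, except Cdk6. Of the 8 tested, 7 were lower and 1 higher. Ccnd1 encodes cyclin D1, which links growth signals to CDK4 and CDK6 (chromosome 7, 144929931 to 144939925). It had 53.3, 53.6 and 55.4 FPKM in Control replicates 1 to 3, 56.7, 59.1 and 60.2 for JHU083, then 43.96, 39.9 and 41.7 for WGFT17. WGFT17 lay below all other libraries, and JHU083 slightly above Control on the FPKM scale. The WGFT17 change against Control was log2 -0.48 (adjusted p = 1.31e-05). Ccnd2 encodes cyclin D2 and had 26.4, 27.2 and 24.7 FPKM in Control replicates 1 to 3, 28.3, 28.6 and 28.4 for JHU083, then 16.1, 15.01 and 16.4 for WGFT17. The WGFT17 libraries again stood apart at the bottom, with a log2 change of -0.83 (SE 0.05, adjusted p = 1.12e-07). Ccnd3, the third D cyclin, had 5.65, 5.75 and 5.84 FPKM in Control replicates 1 to 3, 6.63, 6.35 and 5.27 for JHU083, then 4.04, 3.67 and 3.41 for WGFT17. Its log2 change of -0.74 (SE 0.09, adjusted p = 2.88e-05) lay between those of the other D cyclins. Ccnd1 made up 67.7% to 68.6% of the summed D cyclin FPKM in WGFT17 and 61.9% to 64.5% in Control, and 61.9% to 64.2% in JHU083, so it was the main D cyclin transcript in every library. None of the 3 D cyclin genes was called in JHU083 against Control (95% intervals of -0.09 to 0.14, -0.08 to 0.14 and -0.20 to 0.18).

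The E-type cyclins, which activate CDK2 at the start of DNA synthesis and are E2F targets, had larger estimated falls than the D cyclins in WGFT17. Ccne1 had 5.69, 5.94 and 5.52 FPKM in Control replicates 1 to 3, 6.75, 7.15 and 5.74 for JHU083, then 2.23, 2.44 and 1.98 for WGFT17. The lowest value outside WGFT17 was above 5 FPKM, and the WGFT17 log2 change of -1.47 (SE 0.11, adjusted p = 7.66e-07) was 2.78-fold lower. Ccne2 had 3.29, 3.45 and 4.01 FPKM in Control replicates 1 to 3, 4.9, 4.98 and 6.08 for JHU083, then 1.86, 1.45 and 1.17 for WGFT17. All JHU083 libraries lay above Control and all WGFT17 libraries below it. The log2 change of -1.36 (SE 0.17, adjusted p = 3.86e-05) in WGFT17 was called, while the value of 0.48 in JHU083 (95% interval 0.12 to 0.83) had an adjusted p = 0.0548. It passed in 7 of the 16 alternatives that tested it, by DESeq2 with adjusted p = 0.0201. Against JHU083 directly, WGFT17 had log2 -1.84 (adjusted p = 4.56e-06) for Ccne2 and log2 -1.57 (adjusted p = 5.28e-07) for Ccne1. Ccne2 overlaps Ints8 by 5622 bases on the other strand, and Ints8 was not called in any comparison (adjusted p = 0.963, 0.247 and 0.256).

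The kinases of G1 moved in different directions. Cdk4, the main kinase partner of D cyclins here, had 49.6, 49.9 and 51.2 FPKM in Control replicates 1 to 3, 42.4, 40.6 and 44.9 for JHU083, then 35.2, 36.6 and 34.3 for WGFT17. The 3 groups formed a descending order without overlap. Cdk4 was lower in JHU083 than in Control (log2 -0.33, adjusted p = 0.00219), lower in WGFT17 than in Control (log2 -0.61, adjusted p = 1.94e-06) and lower in WGFT17 than in JHU083 (log2 -0.29, adjusted p = 0.000974). Cdk6, its close relative, had 3.86, 3.54 and 3.18 FPKM in Control replicates 1 to 3, 5.02, 4.62 and 5.03 for JHU083, then 5.18, 4.48 and 4.85 for WGFT17. Both drug groups lay above Control, and they overlapped each other. Cdk6 was higher in JHU083 (log2 0.38, adjusted p = 0.00679) and in WGFT17 (log2 0.35, adjusted p = 0.00268), while the difference between the drug groups was -0.03 (95% interval -0.20 to 0.14). The ratio of Cdk4 to Cdk6 FPKM was 12.8 to 16.1 in Control, 8.45 to 8.93 in JHU083 and 6.79 to 8.17 in WGFT17. Cdk2, the partner of cyclins E and A, had 5.52, 4.61 and 4.43 FPKM in Control replicates 1 to 3, 5.37, 5.35 and 5.49 for JHU083, then 3.46, 3.44 and 3.56 for WGFT17. WGFT17 lay below the rest with a log2 change of -0.58 (SE 0.08, adjusted p = 0.000121), and JHU083 was not called (log2 0.06, adjusted p = 0.618). Cdk4 overlaps Tspan31 by 641 bases on the opposite strand, and Tspan31, at a similar level, was higher in WGFT17 (log2 change of 0.25, adjusted p = 0.000822).

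**Figure D3:**
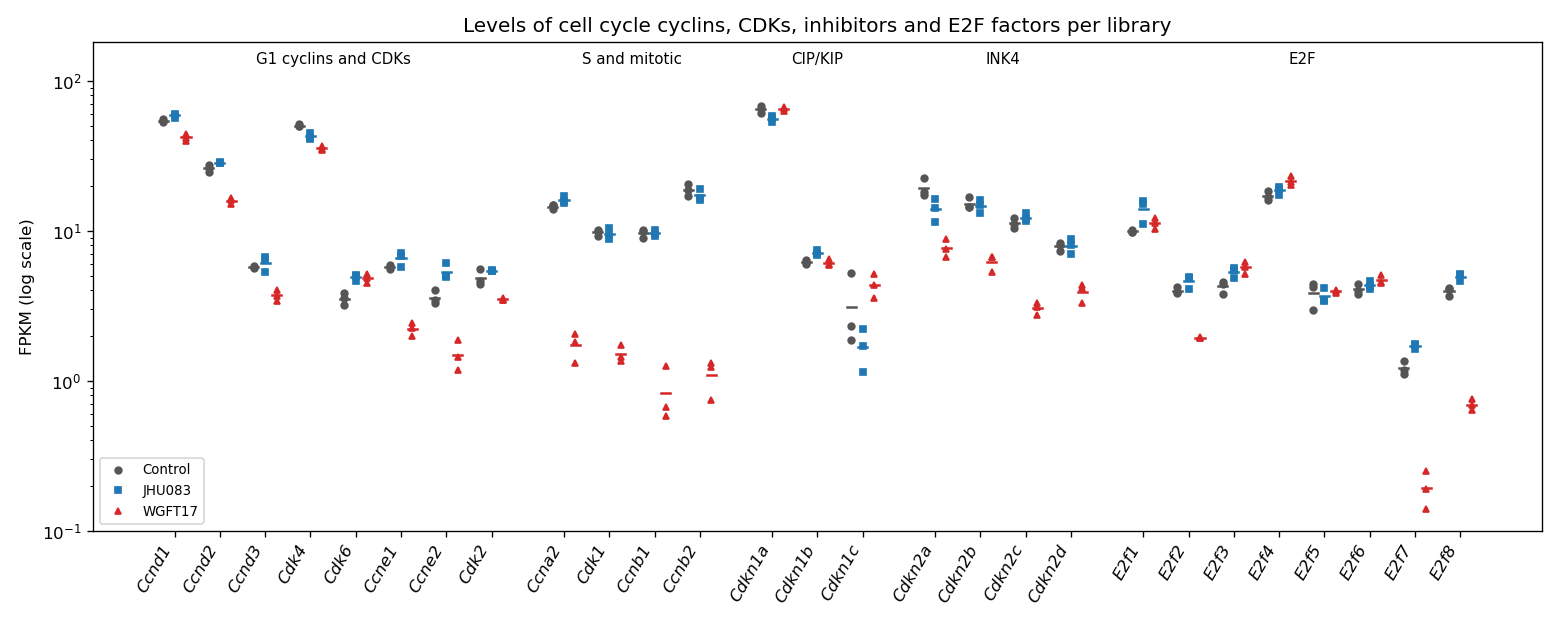
Level of 27 tested members with a role in the cycle, in FPKM on a log axis (y), for each library of Control (grey circles), JHU083 (blue squares) and WGFT17 (red triangles), with a line at each group's mean. The WGFT17 points of Ccna2, Ccnb1, Ccnb2 and Cdk1 lie at or below 2.04 FPKM, while those of Cdkn1a lie at 63.3 to 66.7 FPKM, within the Control range.

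No inhibitor gene was called higher in WGFT17 than in Control. All 4 INK4 genes were lower in WGFT17 than in Control, each at least 2-fold. Cdkn2c, which encodes p18 INK4C, had 10.4, 12.2 and 11.04 FPKM in Control replicates 1 to 3, 13.2, 11.9 and 11.6 for JHU083, then 2.75, 3.32 and 3.1 for WGFT17. The WGFT17 libraries lay far below the others, with a log2 change of -1.98 (SE 0.10, adjusted p = 1.66e-08), or 3.95-fold. Cdkn2a encodes both p16 INK4A and, in another reading frame, p19 ARF, a regulator of p53, and a gene total cannot separate them. It had 17.4, 22.4 and 18.02 FPKM in Control replicates 1 to 3, 16.2, 14.2 and 11.5 for JHU083, then 6.68, 7.51 and 8.74 for WGFT17. JHU083 lay below Control and WGFT17 below both, with no overlap. The change was log2 -1.44 (adjusted p = 8.26e-06) in WGFT17 and log2 -0.56 (adjusted p = 0.0182) in JHU083. Without Control replicate 2, its highest library, the JHU083 change was -0.44 and not called (adjusted p = 0.082).

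Cdkn2b lies beside Cdkn2a on chromosome 4 and encodes p15 INK4B, a mediator of growth arrest by TGF-beta. It had 14.4, 16.8 and 14.3 FPKM in Control replicates 1 to 3, 14.9, 15.9 and 13.04 for JHU083, then 6.67, 5.28 and 6.72 for WGFT17. Only WGFT17 stood apart, with a log2 change of -1.39 (SE 0.12, adjusted p = 1.76e-06). Cdkn2d, which encodes p19 INK4D, had 8.06, 8.25 and 7.27 FPKM in Control replicates 1 to 3, 8.85, 7.97 and 7.01 for JHU083, then 4.35, 4.13 and 3.3 for WGFT17. Its log2 change of -1.11 (SE 0.13, adjusted p = 2.58e-05) was the smallest of the 4 in WGFT17. In JHU083, Cdkn2b, Cdkn2c and Cdkn2d were not called (95% intervals of -0.40 to 0.10, -0.17 to 0.23 and -0.36 to 0.20). Summed INK4 FPKM was 50.2 to 59.7 in Control, 43.1 to 53.1 in JHU083 and 20.2 to 21.9 in WGFT17.

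None of the 3 CIP/KIP genes was called in WGFT17 against Control. Cdkn1a encodes p21, the inhibitor that p53 induces (chromosome 17, 29090976 to 29100727), and was the most abundant inhibitor. It had 61.2, 67.3 and 65.01 FPKM in Control replicates 1 to 3, 58.1, 56.2 and 52.8 for JHU083, then 66.7, 63.3 and 64.7 for WGFT17. WGFT17 lay within the Control range and JHU083 below both. The change was log2 -0.10 (adjusted p = 0.121) in WGFT17, with a 95% interval of -0.22 to 0.01, and log2 -0.31 (adjusted p = 0.00291) in JHU083. WGFT17 was higher than JHU083 (log2 0.21, adjusted p = 0.00749). Cdkn1b, which encodes p27, the inhibitor of resting cells, had 6.16, 6.41 and 6.01 FPKM in Control replicates 1 to 3, 7.44, 7.01 and 6.89 for JHU083, then 6.01, 5.95 and 6.43 for WGFT17. Its JHU083 libraries were the highest, and the called difference was WGFT17 against JHU083 (log2 -0.23, adjusted p = 0.0118). With JHU083 replicate 3 as the only JHU083 library this was -0.19 and not called (adjusted p = 0.0906).

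Cdkn1c encodes p57, the product of an imprinted gene. It had 5.2, 1.86 and 2.3 FPKM in Control replicates 1 to 3, 1.71, 2.21 and 1.14 for JHU083, then 3.56, 4.33 and 5.11 for WGFT17. Control replicate 1 stood far above the other Control libraries, and the Control group overlapped both others. The difference between the drug groups was called (log2 1.34, adjusted p = 0.0101, SE 0.36), without overlap. Against Control, the values were log2 -0.97 (adjusted p = 0.0705) in JHU083 and log2 0.37 (adjusted p = 0.387) in WGFT17. Without Control replicate 1 the WGFT17 value was 0.94 and called (adjusted p = 0.014), and without Control replicate 2 the JHU083 value was -1.24 and called (adjusted p = 0.0421), so these calls depended on single Control libraries. Summed CIP/KIP FPKM was 72.6 to 75.6 in Control, 60.8 to 67.2 in JHU083 and 73.6 to 76.3 in WGFT17.

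**Figure D4:**
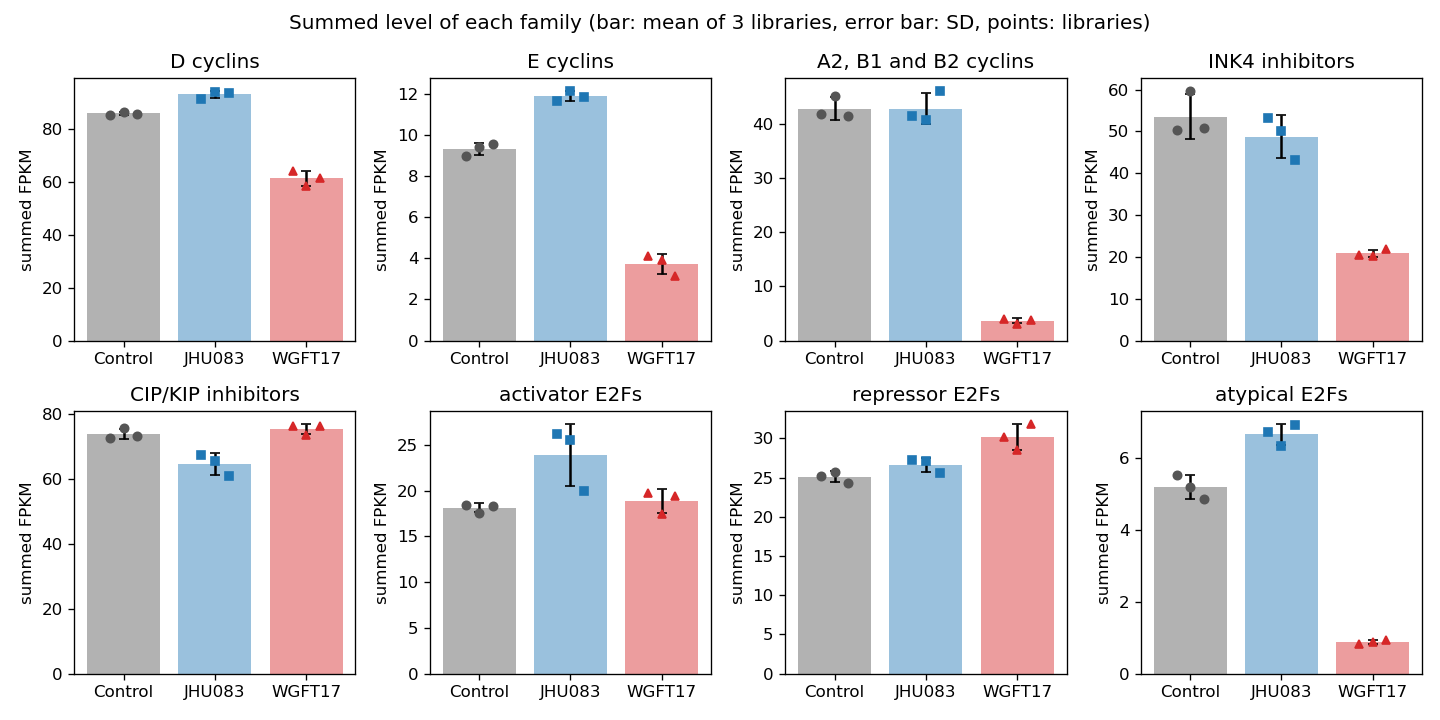
Summed FPKM (y axis, from 0) of 8 families in Control, JHU083 and WGFT17, with bars for the mean of 3 libraries, error bars for the SD and points for libraries. In WGFT17 the A2, B1 and B2 cyclins sum to 3.14 to 4.03 and the atypical E2Fs to 0.83 to 0.94, below every library of the other groups.

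Of the E2F genes, the atypical pair fell furthest in WGFT17. The atypical E2f7 and E2f8, which repress E2F targets late in S phase and are E2F targets themselves, fell. E2f8 had 4.16, 4.09 and 3.68 FPKM in Control replicates 1 to 3, 5.09, 4.59 and 5.13 for JHU083, then 0.64, 0.75 and 0.69 for WGFT17. All WGFT17 libraries were under 1 FPKM and all others above 3, with a log2 change of -2.62 (SE 0.10, adjusted p = 2.05e-09), or 6.13-fold. E2f7 had 1.35, 1.11 and 1.18 FPKM in Control replicates 1 to 3, 1.63, 1.74 and 1.77 for JHU083, then 0.19, 0.14 and 0.25 for WGFT17. The same gap was seen at lower levels, with a log2 change of -2.73 (SE 0.18, adjusted p = 2.49e-07), or 6.64-fold. Its WGFT17 counts were low, at 94 to 163 per library. In JHU083 both lay above Control without overlap, at log2 0.40 for E2f7 and 0.22 for E2f8, and neither was called (adjusted p = 0.0974 and 0.0936).

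The activators E2f1, E2f2 and E2f3 drive entry into S phase. E2f2 had 4.21, 3.9 and 3.85 FPKM in Control replicates 1 to 3, 4.83, 4.9 and 4.08 for JHU083, then 1.94, 1.92 and 1.95 for WGFT17. It was the one activator that fell in WGFT17, to less than 2 FPKM in each library (log2 -1.15, adjusted p = 8.6e-07). E2f3 had 4.55, 3.8 and 4.4 FPKM in Control replicates 1 to 3, 5.62, 5.46 and 4.86 for JHU083, then 5.69, 5.16 and 6.22 for WGFT17. WGFT17 lay above Control, and the rise was called (log2 0.31, adjusted p = 0.0159), but not without Control replicate 2 or without WGFT17 replicate 3 (adjusted p = 0.07 and 0.0707). In JHU083 it was not called (log2 0.23, adjusted p = 0.106), and without JHU083 replicate 3 it was (log2 0.28, adjusted p = 0.0482). E2f1 had 9.73, 9.87 and 10.1 FPKM in Control replicates 1 to 3, 15.8, 15.2 and 11.1 for JHU083, then 12.2, 10.3 and 11.3 for WGFT17. JHU083 replicates 1 and 2 stood above all other libraries, and JHU083 replicate 3 lay within the WGFT17 range. The rise in JHU083 was called (log2 0.40, adjusted p = 0.0277), but with replicate 3 as the sole JHU083 library it was 0.07 (adjusted p = 0.627) and without replicate 3 it was 0.54 (adjusted p = 0.000385). It also missed the threshold without any 1 of the Control libraries or without JHU083 replicate 1 or 2 (adjusted p from 0.068 to 0.0925). In WGFT17 E2f1 was not called (log2 0.07, adjusted p = 0.599). The difference between the drug groups (log2 -0.33, adjusted p = 0.0373) was 0.0048 with JHU083 replicate 3 alone (adjusted p = 0.972) and was not called without JHU083 replicate 1 or 2 or WGFT17 replicate 2 or 3 (adjusted p from 0.0906 to 0.143).

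Of the repressors E2f4, E2f5 and E2f6, E2f4 alone was called, in 1 comparison. E2f4, the main E2F of resting cells, had 18.5, 16.9 and 16.1 FPKM in Control replicates 1 to 3, 19.5, 19.01 and 17.4 for JHU083, then 21.1, 20.2 and 23.3 for WGFT17. Its small rise in WGFT17 was called (log2 0.22, adjusted p = 0.0255) but ended without Control replicate 2, Control replicate 3 or WGFT17 replicate 3 (adjusted p = 0.0797, 0.097 and 0.114). E2f5 had 2.95, 4.42 and 4.23 FPKM in Control replicates 1 to 3, 3.39, 3.47 and 4.15 for JHU083, then 4.00, 3.84 and 3.99 for WGFT17, with Control replicate 1 the lowest library. E2f6 had 3.79, 4.4 and 3.98 FPKM in Control replicates 1 to 3, 4.29, 4.62 and 4.07 for JHU083, then 5.06, 4.49 and 4.58 for WGFT17. Neither was called in any comparison, with adjusted p from 0.464 to 0.688 for E2f5 and from 0.3 to 0.978 for E2f6. Summed FPKM of the activators was 17.6 to 18.5 in Control and 17.4 to 19.8 in WGFT17, so the WGFT17 sum of activators lay close to that of Control while the sum of E2f7 and E2f8 fell from 4.86 to 5.51 in Control to 0.83 to 0.94.

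The members that act in transcription and splicing moved the other way from the mitotic regulators in WGFT17. Of the 12 tested, 11 were higher than in Control, 0 lower and 1, Cdk7, was not called. The rises were small, from 0.24 for Cdk11b to 0.62 for Ccnt2. The name rule leaves out the transcription cyclins Ccnc, Ccnh and Ccnk. In WGFT17 against Control, Ccnc and Ccnk were not called (log2 0.04 and 0.0069, adjusted p = 0.815 and 0.931). Ccnh was higher there (log2 0.24, adjusted p = 0.0477), and Ccnk was lower in JHU083 than in Control (log2 -0.23, adjusted p = 0.0222). Ccnt1 and Ccnt2 encode cyclins T1 and T2, which with CDK9 form P-TEFb, the complex that releases paused RNA polymerase II. Ccnt1 had 3.43, 3.53 and 3.25 FPKM in Control replicates 1 to 3, 4.15, 4.57 and 5.1 for JHU083, then 4.75, 4.95 and 4.93 for WGFT17. Both drug groups lay above Control (log2 0.34, adjusted p = 0.0107 in JHU083 and log2 0.41, adjusted p = 0.000983 in WGFT17). Ccnt2 had 3.15, 2.27 and 2.24 FPKM in Control replicates 1 to 3, 3.51, 3.56 and 3.73 for JHU083, then 4.17, 3.95 and 4.58 for WGFT17. Control replicate 1 was nearest to the drug groups, which overlapped neither it nor each other (log2 0.40, adjusted p = 0.0299 in JHU083, log2 0.62, adjusted p = 0.000905 in WGFT17). The JHU083 rise of Ccnt2 ended without Control replicate 2 or 3 or JHU083 replicate 1 or 2 (adjusted p from 0.0505 to 0.117). The kinase Cdk9 had 17.7, 17.5 and 17.6 FPKM in Control replicates 1 to 3, 22.1, 21.4 and 18.2 for JHU083, then 22.5, 22.9 and 24.1 for WGFT17. It was called in WGFT17 (log2 0.29, adjusted p = 0.00323) and not in JHU083 (log2 0.13, adjusted p = 0.173), where replicate 3 lay lowest. Without that library the JHU083 change was 0.21 and called (adjusted p = 0.00492).

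Ccnl1 and Ccnl2 encode cyclins L1 and L2, which pair with CDK11 in splicing. Ccnl1 had 5.93, 4.99 and 4.55 FPKM in Control replicates 1 to 3, 6.95, 6.92 and 8.07 for JHU083, then 8.3, 7.34 and 8.29 for WGFT17. It was higher in JHU083 (log2 0.41, adjusted p = 0.0155) and in WGFT17 (log2 0.52, adjusted p = 0.00115), with the drug groups overlapping. Its JHU083 rise ended without Control replicate 2 or 3 (adjusted p = 0.0626 and 0.0658). Ccnl2 had 8.35, 7.26 and 7.08 FPKM in Control replicates 1 to 3, 10.2, 9.39 and 11.4 for JHU083, then 10.1, 8.88 and 11.8 for WGFT17. Its change was log2 0.35 (adjusted p = 0.0363) in JHU083 and log2 0.33 (adjusted p = 0.0214) in WGFT17. Neither was called without Control replicate 2 (adjusted p = 0.121 and 0.0751) or Control replicate 3 (0.124 and 0.0767), the JHU083 rise ended without JHU083 replicate 1 or 3 (0.0645 and 0.0769), and the WGFT17 rise without WGFT17 replicate 3 (0.101). Their partner Cdk11b had 17.7, 17.2 and 16.9 FPKM in Control replicates 1 to 3, 21.2, 19.4 and 19.99 for JHU083, then 22.1, 21.4 and 22.7 for WGFT17. WGFT17 was above Control (log2 0.24, adjusted p = 0.00134), and JHU083 lay between them without being called (log2 0.13, adjusted p = 0.072).

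Cdk12 and Cdk13 phosphorylate the tail of RNA polymerase II during elongation. Cdk13 had 3.63, 3.54 and 3.5 FPKM in Control replicates 1 to 3, 4.38, 4.34 and 4.36 for JHU083, then 4.84, 4.88 and 5.07 for WGFT17. The 3 groups rose in the order Control, JHU083, WGFT17 with no overlap, and each step was called (log2 0.20, adjusted p = 0.0121 for JHU083 against Control, log2 0.36, adjusted p = 5.47e-05 for WGFT17 against Control and log2 0.16, adjusted p = 0.0143 for WGFT17 against JHU083). The first step ended without Control replicate 2 (adjusted p = 0.0517) and the last without WGFT17 replicate 3 (adjusted p = 0.0595). Cdk12 had 3.56, 3.47 and 3.13 FPKM in Control replicates 1 to 3, 3.68, 3.92 and 4.56 for JHU083, then 4.3, 4.5 and 4.57 for WGFT17. It was higher in WGFT17 (log2 0.29, adjusted p = 0.012), though not without Control replicate 3 (adjusted p = 0.0534), and not called in JHU083. Without JHU083 replicate 3 it was called higher in WGFT17 than in JHU083 (log2 0.22, adjusted p = 0.0148). Cdk8 and Cdk19 are alternative kinases of the Mediator complex. Cdk8 had 2.6, 2.25 and 2.25 FPKM in Control replicates 1 to 3, 3.06, 2.69 and 3.01 for JHU083, then 3.58, 3.21 and 3.69 for WGFT17. Cdk19 had 6.6, 5.89 and 6.27 FPKM in Control replicates 1 to 3, 7.26, 7.66 and 7.48 for JHU083, then 9.16, 8.37 and 8.17 for WGFT17. Both were higher in WGFT17 than in Control (log2 0.45, adjusted p = 0.000989 and log2 0.34, adjusted p = 0.00117) and than in JHU083 (log2 0.24, adjusted p = 0.0391 and log2 0.18, adjusted p = 0.0464). The calls against JHU083 were near the threshold, and they ended in 5 of 16 alternatives for Cdk8 and in 9 of 17 for Cdk19. Cdk10 had 3.02, 3.48 and 3.8 FPKM in Control replicates 1 to 3, 3.81, 3.58 and 3.63 for JHU083, then 4.66, 4.53 and 4.68 for WGFT17, with WGFT17 above Control (log2 0.32, adjusted p = 0.0121) and JHU083 (log2 0.32, adjusted p = 0.0158). With JHU083 replicate 3 alone the latter was 0.33 and not called (adjusted p = 0.0726). Cdk10 overlaps Spata2l by 2450 bases on the opposite strand. Spata2l had like estimates in WGFT17 that were not called, at log2 0.34 against Control (adjusted p = 0.0689) and 0.20 against JHU083 (adjusted p = 0.302). Its part in the Cdk10 counts was not tested. Cdk7, part of the CDK-activating kinase and of the factor TFIIH, ranged from 5.25 to 6.31 FPKM over the 9 libraries and was not called in any comparison.

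Members outside these roles were mixed. Ccng1 encodes cyclin G1, a target of p53. It had 65.6, 65.6 and 64.04 FPKM in Control replicates 1 to 3, 64.2, 61.98 and 74.0 for JHU083, then 54.2, 55.4 and 54.8 for WGFT17. WGFT17 lay lowest (log2 -0.36, adjusted p = 0.000645), and JHU083 replicate 3 was the highest of all libraries. Without that library Ccng1 was also called lower in JHU083 than in Control (log2 -0.15, adjusted p = 0.0155). Ccng2 encodes cyclin G2, which is known to be induced in resting cells. It had 4.88, 4.24 and 4.17 FPKM in Control replicates 1 to 3, 6.55, 5.89 and 5.86 for JHU083, then 3.78, 3.56 and 3.85 for WGFT17. JHU083 lay above Control (log2 0.37, adjusted p = 0.00914) and WGFT17 below it (log2 -0.36, adjusted p = 0.003), with no overlap, so the drug groups differed by log2 -0.72 (adjusted p = 2.28e-05). Ccng2 was the one member called in opposite directions in the comparisons with Control. With JHU083 replicate 3 alone the JHU083 rise was 0.32 and not called (adjusted p = 0.0533). Cdk20, a kinase linked to cilia, had 2.11, 2.25 and 2.21 FPKM in Control replicates 1 to 3, 2.47, 2.97 and 2.1 for JHU083, then 3.72, 3.55 and 3.47 for WGFT17 and was higher in WGFT17 (log2 0.60, adjusted p = 0.000858). Cdk14 had 3.29, 3.23 and 3.01 FPKM in Control replicates 1 to 3, 3.67, 3.6 and 4.15 for JHU083, then 3.3, 3.3 and 3.15 for WGFT17. Its call was lower in WGFT17 than in JHU083 (log2 -0.24, adjusted p = 0.0101). Cdk5, Cdk16, Cdk17 and Cdk18 were not called in any comparison. Without JHU083 replicate 3, Cdk18 was called lower in WGFT17 than in JHU083 (log2 -0.24, adjusted p = 0.00216) and higher in JHU083 than in Control (log2 0.22, adjusted p = 0.00869).

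The compounds differed on the members as follows. Of 47 tested members, 30 were called between WGFT17 and JHU083, and 23 of these were lower in WGFT17. The 7 members higher in WGFT17 were Cdkn1a, Cdkn1c, Cdk8, Cdk10, Cdk13, Cdk19 and Cdk20. Against shared Control libraries, 6 members were called higher in both drug groups. The share of all genes called higher in both was not counted, while 11.5% were in JHU083 and 28.0% in WGFT17. In JHU083 against Control, the calls of Ccnl1, Ccnl2, Ccnt2 and Cdk13 ended without Control replicate 2. Of the 6, Cdk13 also differed between the compounds. For the other 5, Cdk6, Ccnl1, Ccnl2, Ccnt1 and Ccnt2, the difference between the compounds was -0.03, 0.11, -0.02, 0.07 and 0.22, with 95% intervals of -0.20 to 0.14, -0.11 to 0.33, -0.26 to 0.21, -0.10 to 0.24 and -0.04 to 0.47. The Ccnt2 libraries of the drug groups did not overlap, and its difference was called when those 2 groups alone were fitted (adjusted p = 0.0404). Of the 47, 7 were not called in any of the 3 comparisons.

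Other genes of the pathway were read from lists written from general knowledge. For all lists, the shares to set beside the counts are those of all tested genes. Of these, 28.0% were called higher and 30.0% lower in WGFT17, and 11.5% and 12.5% in JHU083. Of 16 mitotic genes of the DREAM and FOXM1 program, 16 were lower in WGFT17 than in Control (median log2 -2.91, beside 0.0044 over all genes), and each was at least 2-fold lower. In JHU083, 3 were higher and 1 lower (median 0.15), 25% of the list beside 24.0% of all genes. The kinase gene Plk1 had a log2 change of -3.70 in WGFT17 and -0.24 in JHU083 (adjusted p = 8.24e-11 and 0.0241), Prc1 -3.52 and 0.09 (adjusted p = 3.18e-10 and 0.485), and Tpx2 -2.57 and -0.03 (adjusted p = 1.41e-10 and 0.777). Of 18 E2F targets of DNA synthesis, 17 were lower and 0 higher in WGFT17 (median -0.88), and 4 higher and 0 lower in JHU083 (median 0.06). The JHU083 share of 22.2% was also near that of all genes. The ribonucleotide reductase genes Rrm1 and Rrm2 changed by -1.98 and -2.52 in WGFT17 (adjusted p = 3.12e-10 and 1.02e-09), and the thymidine kinase gene Tk1 by -2.29 (adjusted p = 1.03e-09). In JHU083, Rrm2 rose by 0.27 (adjusted p = 0.0293).

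Of 12 RB and DREAM partners, 2 were higher and 7 lower in WGFT17 (median -0.27), and 2 higher and 1 lower in JHU083. These were 75% and 25% of the list, beside 58.0% and 24.0% of all tested genes. Foxm1 and Mybl2, transcription factors of the G2 and M phase genes, had changes of -2.87 and -2.25 (adjusted p = 7.54e-10 and 1.84e-07), and Rbl1, which encodes the RB relative p107, -0.74 (adjusted p = 9.64e-05). Of 12 tested activators, brakes and assembly factors of CDKs, 1 was higher and 10 lower in WGFT17 (median -0.57). Cdkn3, a phosphatase of CDKs, changed by -4.24, Cks1b by -1.86 and the activating phosphatase Cdc25b by -1.63 (adjusted p = 3.21e-07, 1.33e-08 and 4.98e-07). In JHU083, Cks1b was the 1 lower gene of this list (log2 change of -0.53, adjusted p = 0.00215). Of 12 ubiquitin ligase parts, 1 was higher and 7 lower in WGFT17; Ube2c, Cdc20 and Ccnf, which act in mitosis, changed by -3.76, -3.35 and -2.33 (adjusted p = 1.53e-10, 1.09e-09 and 5.07e-09).

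The p53 targets were divided. Of 16 genes, 4 were higher and 8 lower in WGFT17 (median -0.14), and 0 higher and 5 lower in JHU083 (median -0.13). These were 75% and 31.25% of the list, beside 58.0% and 24.0% of all tested genes. Gadd45a rose by 1.29 on the log2 scale in WGFT17, Plk2 rose by 0.58 and Btg2 changed by -1.46 (adjusted p = 4.69e-06, 6.48e-06 and 1.05e-07). Among 8 tested single-letter cyclins, which the name rule leaves out, 2 were higher and 2 lower in WGFT17. The cell membrane cyclin gene Ccny rose by 0.59 and Ccnyl1 changed by -0.89 (adjusted p = 1.18e-06 and 8.73e-06). In JHU083, 1 gene of this list was higher and 2 lower. Ccny and Ccnyl1 were called there in the same directions, at 0.15 and -0.39 (adjusted p = 0.0402 and 0.0115). Ccnf and Ccnh of this list are also counted in lists above. As with the members, the 3 comparisons share libraries, and the fall of the stromal markers in WGFT17 ran beside the fall of these lists.

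**Figure D5:**
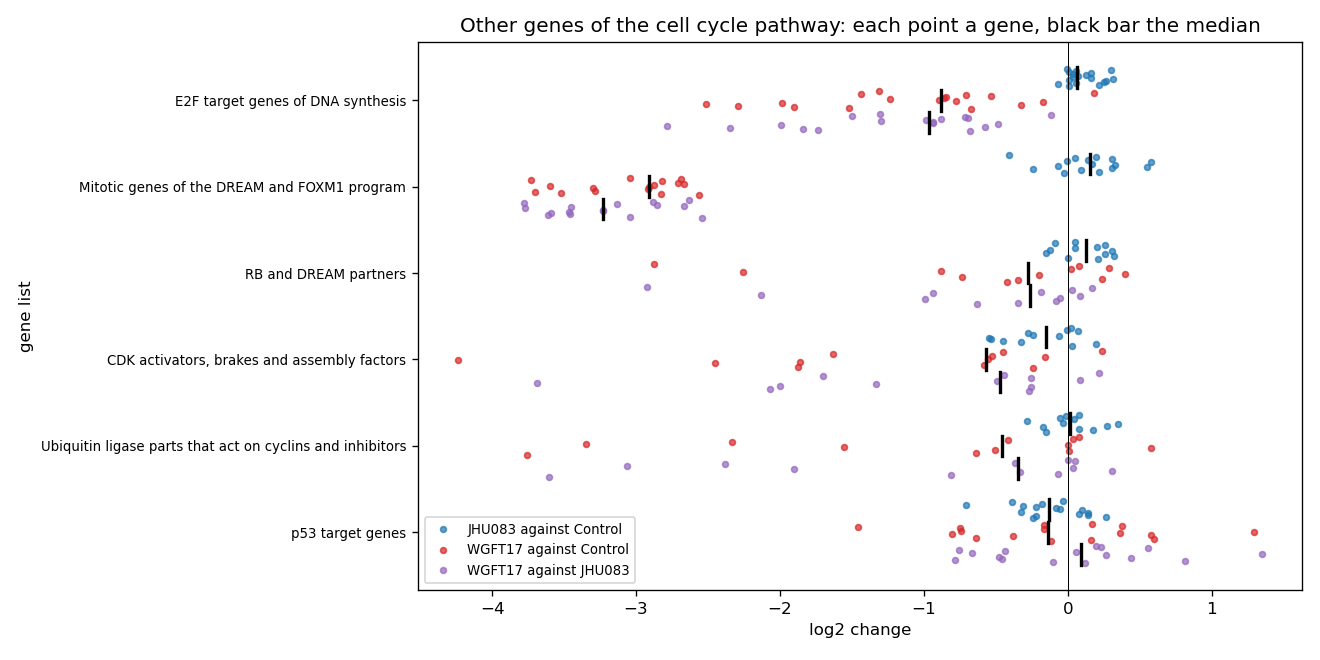
Log2 change (x axis) of each tested gene (point) of 6 pathway lists (y axis) in JHU083 against Control (blue), WGFT17 against Control (red) and WGFT17 against JHU083 (purple), with the median as a black bar. All 16 mitotic genes lie at or below -2.57 in WGFT17 against Control, and the median of the p53 targets lies at -0.14.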

How the data were processed

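RNA was sequenced from 9 libraries, 3 for each group, with reads of 150 bases. Per the submitters' processing notes, the build was mm9 and the tools, with no roles given, included edgeR, DESeq2, HISAT2 2.2.1, cutadapt 1.9 and StringTie 2.1.6. The gene positions in the deposited table, however, equal those of GRCm38 for 26125 of 28926 matched genes (90.3%), and for 41 of the 50 members (82%). The authors deposited 1 table with an estimated count and an FPKM per gene and library. The deposited estimated counts are whole numbers, about 4 to a read pair, and their totals are 56624220 to 69112134 per library.

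Genes with a mean of at least 1 FPKM (11798) were tested on the counts with edgeR 4.0.16 (R 4.3.3), using TMM factors and quasi-likelihood tests over all 9 libraries by group. P-values were adjusted by Benjamini-Hochberg over all tested genes, and called means an adjusted p under 0.05. Intervals at 95% come from the same fit. The test was tried on simulated data with known changes. Alternatives included DESeq2 1.42.0, limma 3.58.1 on log2(FPKM + 1) or log2(FPKM + 0.1), other scalings and FPKM minimums, a replicate block and leaving out each library.

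Every tested member of the G1, S and mitotic, inhibitor and E2F roles is given by library, as are other members called in at least 1 comparison. Up to 3 genes per pathway list are named, those with the smallest adjusted p in WGFT17 against Control. Ccnc, Ccnh and Ccnk are named besides, as transcription cyclins outside the name rule. The members and lists were chosen with earlier results of these data known. Promoter windows are from RefSeq (GRCm38.p6).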

Additional observations from a re-analysis of the deposited data

How the results depend on the processing

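Of the called members, 31 of 35 in WGFT17 against Control passed in all 16 alternatives that tested them, 23 of 30 in WGFT17 against JHU083 in all 17, and 4 of 11 in JHU083 against Control in all 17. With libraries left out in turn, members called higher and lower were 12 to 16 and 20 in WGFT17 against Control, 5 to 8 and 22 to 24 in WGFT17 against JHU083, and 3 to 10 and 3 to 4 in JHU083 against Control. The 8 higher members of that last comparison became 3 when Control replicate 2 was left out, 4 when Control replicate 3 was and 5 when JHU083 replicate 1 was. They were 4 with no minimum FPKM, 4 with a mean FPKM of at least 5, and 17 by limma on log2(FPKM + 1) or on log2(FPKM + 0.1), where the median of all genes was also above 0. The minimum of 5 FPKM tests fewer members and left 7 higher and 13 lower in WGFT17 against Control and 1 higher in WGFT17 against JHU083. E2f1 in WGFT17 against JHU083 turned from log2 -0.33 to 0.0048 with JHU083 replicate 3 as the only JHU083 library; the cause was not tested.

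Deviations from the group means had correlations from -0.034 to 0.161 between libraries of the same replicate number. Between libraries of different numbers they were -0.146 to 0.133. Whether libraries of the same number shared a culture, animal or batch is not given in the labels and was not tested. With a replicate block, members called higher and lower were 8 and 3 in JHU083 against Control, 15 and 20 in WGFT17 against Control, and 6 and 23 in WGFT17 against JHU083, where the call of Cdk19 ended (adjusted p = 0.0729) and no other member's did. With 3 libraries a group, small changes of low members such as E2f7 and Cdkn1c are limited by depth and spread.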
